A study of Homo sapiens with 12 samples.

Results

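The sites described here are the peaks reported for HA-tagged dCas9 with the guide sgRNA3 in HEK 293T, an established line derived from human embryonic kidney that carries the SV40 large T antigen. They were taken as all rows of the 2 deposited sgRNA3 peak lists, with 41 peaks in replicate 1 and 382 in replicate 2, or 423 of the 58042 peaks in all 9 lists. The sgRNA3 cells, at passages 17 to 21, were transfected with dCas9 and the guide by means of Fugene6 and collected on day 3, and chromatin was precipitated with an antibody to the HA tag. The lists they were compared with came from the same line and protocol and differed in the guide. sgRNA1 and sgRNA2 had 2 libraries each, and sgRNA4, sgRNA5 and sgRNA6 had 1 each. The library of dCas9 without a guide was not analysed here, and neither were the sequence and the intended target of sgRNA3. No value below can therefore be set against a background measured without a guide. The transfection was transient, and nothing in the labels says that the 2 replicates came from separate cultures.

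Cas9 is a bacterial nuclease that a short RNA directs to DNA. It first recognises a short protospacer adjacent motif, then opens the neighbouring DNA and pairs it with the guide, beginning at the seed next to the motif. dCas9 has lost the ability to cut but still binds, so its sites can be mapped by chromatin immunoprecipitation sequencing (ChIP-seq), in which protein and DNA are crosslinked and the DNA bound to the protein is sequenced. Binding needs less pairing than cutting does, and a bound site is not necessarily a cut site.

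The sgRNA3 lists differed in length and in peak width. Replicate 1 covered 20.3 kb with peaks of 199 to 1100 bp (median 528), and replicate 2 covered 286 kb with peaks of 234 to 2639 bp (median 681.5). Each peak carries the authors' score. Scores of different lists are set side by side only as a description, since their scale may differ between libraries. No score in either list lay below 50. Scores under 60 made up 15 of 41 peaks (36.6%) in replicate 1 and 181 of 382 (47.4%) in replicate 2, and scores of 100 or more made up 7 (17.1%) and 28 (7.33%). The median score was 64.6 in replicate 1 and 60.9 in replicate 2. Read depth is unknown, so how far it set the lengths of the lists was not tested. All positions are on hg19, counted from 1, and peaks were not assigned to genes because no annotation of that build was used here.

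Replicate 1 and replicate 2 shared 17 regions, where a peak of one overlapped a peak of the other by at least 1 bp. These were 17 of 41 replicate 1 peaks (41.5%, exact Clopper-Pearson 95% interval 26.3 to 57.9) and 17 of 382 replicate 2 peaks (4.45%, 2.61 to 7.03). Such intervals cover counting error only. No peak matched more than 1 peak of the other list. The regions fell into 11 that overlapped no peak of another guide and 6 that did.

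Among the 11 regions found with sgRNA3 alone, one stood far above the others. The region on chromosome 9, 110184226 to 110184964, scored 1169 in replicate 1 (rank 1 of 41) and 517 in replicate 2 (rank 2 of 382). The nearest peak of another guide was 67.3 kb away, in the sgRNA4 list. The next of this kind by replicate 1 score was that on chromosome 11, 112633255 to 112634053, which scored 104 (rank 7) and 101 (rank 27). A region on chromosome 1, 109370529 to 109371141, scored 98.3 (rank 8) and 70.6 (rank 105). Another on chromosome 16, 28306353 to 28306922, scored 87.8 (rank 13) and 91.2 (rank 38). These 4 held the best replicate 1 ranks of the 11, and the gap from the chromosome 9 score to the next was more than that between any other neighbours in the group.

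The remaining 7 regions without another guide had replicate 1 scores of 54.3 to 79.2. On chromosome 2, 85749941 to 85750712, the scores were 79.2 (rank 14) and 61.4 (rank 185). On chromosome 5, 34808779 to 34809220, they were 69.5 (rank 17) and 59.5 (rank 206). The chromosome 1 region from 201225523 to 201226701 had 64.6 (rank 22) and 53.9 (rank 303), the lowest replicate 2 score of all 17. These 3 ranked better in replicate 1, also when rank was read as a share of the list.

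In the other 4, the share of the list at or above the peak was smaller in replicate 2. The region on chromosome 8, 143407096 to 143407716, ranked 36 of 41 in replicate 1 (score 54.3) and 24 of 382 in replicate 2 (106). The chromosome 1 region from 143436552 to 143439044 ranked 23 (62.9) and 45 (89.0). On chromosome 14, 20256223 to 20256796, the ranks were 31 (55.3) and 142 (65.7), and on chromosome 7, 102631073 to 102631386, they were 30 (58.0) and 158 (63.5). A low replicate 1 score therefore did not go with a low replicate 2 rank in each case.

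The other 6 regions in both replicates also held peaks of other guides. The region on chromosome 15, 68132292 to 68132972, scored 348 (rank 3) and 1339 (rank 1) and overlapped a peak in all 7 lists of the other 5 guides. In those lists its rank was 1 or 2 with sgRNA1, sgRNA2 and sgRNA5, 59 of 13660 with sgRNA4 and 109 of 33611 with sgRNA6. Of the 17, it was the one region found with sgRNA1 or sgRNA2. Transfected DNA can carry copies of genomic promoters, and whether such DNA contributed reads to this peak was not tested. Another region, on chromosome 10, 3356233 to 3357410, scored 67.0 (rank 18) and 88.4 (rank 46) with sgRNA3, and overlapped the peaks of rank 3 with sgRNA5 (score 1734) and rank 36 with sgRNA6 (1797). It was thus among the highest sites of 2 other guides while it stood near the middle of sgRNA3 replicate 1.

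The other 4 shared regions overlapped lower peaks of the other guides. The chromosome 4 region from 1749741 to 1750783 ranked 4 in both replicates (scores 165 and 202), and the peaks it overlapped ranked 8769 with sgRNA4 (65.2) and 8202 of 8346 with sgRNA5 (50.6). The region on chromosome 5, 176018749 to 176019266, ranked 5 (112) and 57 (84.1) and met the sgRNA4 peak of rank 10400 (58.6). On chromosome 14, 99739068 to 99739752, the ranks were 10 (89.5) and 151 (64.6), against 9479 with sgRNA4 (61.9) and 16159 with sgRNA6 (92.5). On chromosome 4, 7364979 to 7365842, they were 24 (62.1) and 19 (111), against 4178 with sgRNA4 (98.4). In the first 3 of these regions, the share of the list at or above the peak was 48.1 to 98.3% with the other guides, more than in either sgRNA3 replicate. In the last it was 30.6% with sgRNA4, which lay between replicate 2 and replicate 1 of sgRNA3.

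**Figure D1:**
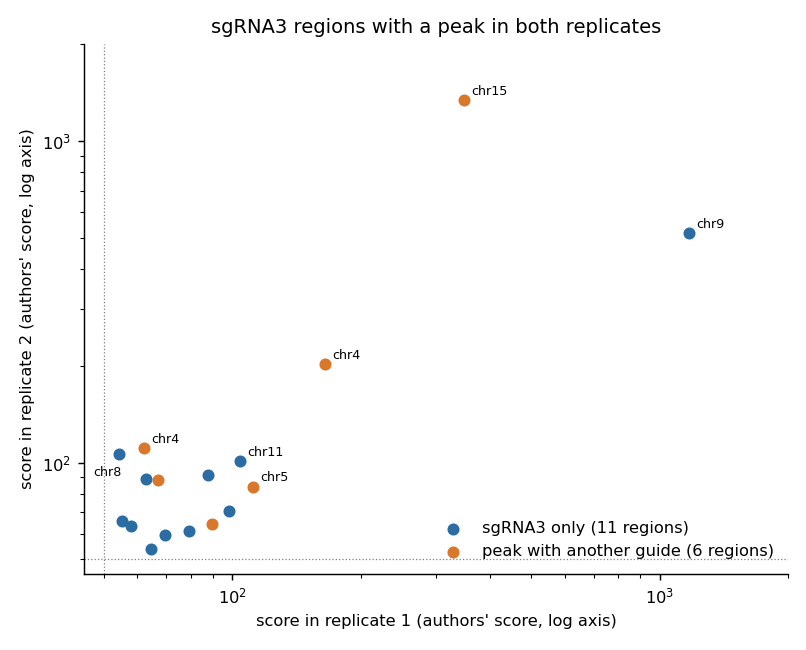
Scores of the 17 sgRNA3 regions with a peak in both replicates, replicate 1 on the x axis and replicate 2 on the y axis, both logarithmic; each point is 1 region, blue without and orange with a peak of another guide, dotted lines mark a score of 50, and chromosomes are named where a score is 100 or more. The regions on chromosomes 9 (1169 and 517) and 15 (348 and 1339) stand apart, and 13 of the 17 have a replicate 1 score of 104 or less.

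The replicates shared an order of scores mainly through the highest regions. Over the 17 regions, Pearson's r of log10 scores was 0.82 and Spearman's rho was 0.40, given as descriptions since all points come from the same 2 libraries. Without the 4 regions with the highest replicate 1 scores, Spearman's rho over the remaining 13 was -0.09.

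The 2 peaks of a region lay close together. Their centres were 1.5 to 773 bp apart (median 93). The replicate 2 peak was the wider one in 14 of 17 regions, with a ratio of widths of 0.70 to 2.60 (median 1.19), and in 8 regions it held the whole replicate 1 peak. The smallest overlap was on chromosome 1 at 201225523, where the peaks shared 108 bp, 17.3% of the replicate 1 peak. The largest distance between centres, 773 bp, was in the chromosome 1 region from 143436552, whose peaks of 1100 and 2340 bp were the widest of replicate 1 and the widest of the 17 in replicate 2. No replicate 1 peak was a near miss: those without overlap lay 236 kb or more from any replicate 2 peak, and the closest was on chromosome 19 at 2713662.

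Peaks found in both replicates stood higher in both lists than those found in one. In replicate 1 their median score was 79.2 (range 54.3 to 1169), against 60.4 (50.1 to 745) for the 24 single peaks. In replicate 2 the median was 88.4 (53.9 to 1339), against 60.4 (50.03 to 218) for the 365 single peaks. The ranges overlapped in both lists. As a share of the list at or above the peak, the medians were 34.1% against 64.6% in replicate 1 and 12.0% against 51.8% in replicate 2. Of the 10 highest replicate 1 peaks 7 were found again in replicate 2, and of the 10 highest replicate 2 peaks 3 were found in replicate 1. Peaks of 1 list are not replicates of the guide, so these differences were not tested.

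Width did not order the peaks in the same way. In replicate 1 the peaks found in both replicates were wider (median 555 against 433 bp), and in replicate 2 they were narrower (621 against 685 bp). The ratio of medians was 1.28 and 0.907. For comparison, the peaks of sgRNA1 in both replicates had medians of 517 against 451 bp in replicate 1 and 639 against 721 bp in replicate 2, the same directions as with sgRNA3. With sgRNA2 the medians were 680.5 against 594 bp and 867 against 816.5 bp.

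Replicate 1 held 24 peaks that replicate 2 lacked. The highest, on chromosome 14, 20811557 to 20811928, had the second rank of the list (score 745), far above the others, whose scores were 50.1 to 104. It overlapped the peak of rank 3 in sgRNA1 replicate 1 (score 457), one of rank 1758 with sgRNA5 (92.8) and one of rank 2408 with sgRNA6 (307), but no peak in replicate 2 of sgRNA1. Whether transfected DNA contributed reads here was not tested either, so how far the score and the sharing of this peak reflect genomic binding is not known. The next were on chromosome 10, 42599524 to 42600459 (104, rank 6), chromosome 12, 131850551 to 131851009 (95.5, rank 9), and chromosome 11, 51582704 to 51583235 (89.3, rank 11), all without another guide. The fifth, on chromosome 17, 80455366 to 80455602 (88.5, rank 12), overlapped the sgRNA5 peak of rank 2018 (88.0).

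Of these 24 peaks, 4 lay in pairs less than 3 kb apart. On chromosome 18, peaks at 107885 to 108570 (66.0) and 110204 to 110904 (66.8) were separated by 1.63 kb, and each overlapped a peak of sgRNA1 replicate 1 (51.9 and 55.1) and no other list. On chromosome 10, the peak at 42596702 to 42597432 (61.2) lay 2.09 kb from that at 42599524. A single peak that ranked low here was high with another guide: that on chromosome 19, 2713662 to 2714267, had rank 34 here (54.6) and rank 13 of 13660 with sgRNA4 (1327). Of the 24, 17 overlapped no other guide, with a median score of 58.2, and 7 overlapped at least one (29.2%, 12.6 to 51.1).

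Replicate 1 met sgRNA1 more often in that guide's replicate 1 list, although that list was the shorter. Of the 41 peaks, 4 were found in the 96-peak list of sgRNA1 replicate 1 and 1 in the 1278-peak list of sgRNA1 replicate 2. The 4 were the regions on chromosomes 14 and 15 and the pair on chromosome 18, and the 1 was that on chromosome 15. Of the 382 replicate 2 peaks of sgRNA3, 3 were found in sgRNA1 replicate 1 and 97 in sgRNA1 replicate 2. The lists of sgRNA2 did not differ in this way: 1 of the 41 was found in its replicate 1 and 1 in its replicate 2. Of the 382, 10 were found in sgRNA2 replicate 1 and 51 in sgRNA2 replicate 2. What the libraries of 1 number share is not given in the labels, and its part in these counts was not tested.

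Replicate 2 held 365 peaks that replicate 1 lacked, and most were regions also found with other guides. At least 1 other guide had a peak at 306 of them (83.8%, 79.7 to 87.5), compared with 6 of the 17 regions in both replicates (35.3%, 14.2 to 61.7) and 7 of the 24 replicate 1 peaks above (29.2%). When 50% of both peaks had to overlap, these shares were 76.8% for replicate 2 alone, 16.7% (2 of 12) for both replicates and 17.2% (5 of 29) for replicate 1 alone. Regions with peaks of 3 or more other guides made up 192 of the 365 (52.6%), 1 of the 17 (5.88%) and 1 of the 24 (4.17%). The intervals for replicate 2 alone did not overlap those of the other classes, which are small. Intervals over peaks say nothing of the spread between libraries, and replicate 2 differed from replicate 1 in length as well.

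**Figure D2:**
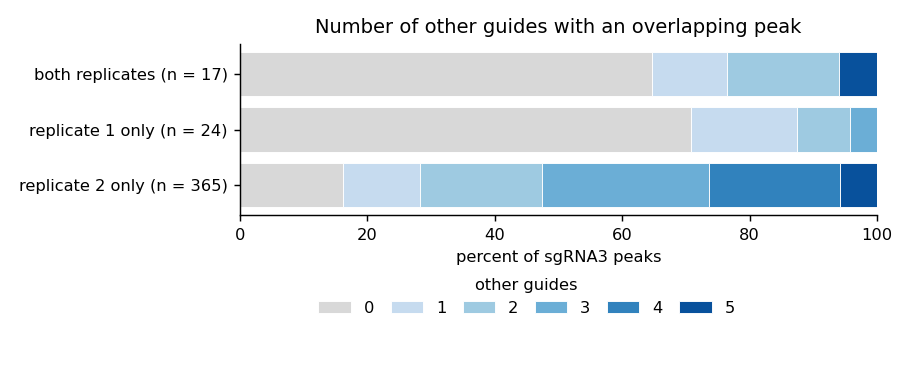
Horizontal bars give the percent of sgRNA3 peaks that overlap peaks of 0 to 5 other guides, for the 17 regions in both replicates, the 24 peaks of replicate 1 only and the 365 of replicate 2 only. Grey, no other guide, takes 64.7% and 70.8% of the first 2 bars and 16.2% of the third.

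Of the 5 highest replicate 2 peaks absent from replicate 1, 2 were found with sgRNA3 alone. They lay on chromosome 12, 133433040 to 133434237 (score 218, rank 3, 1198 bp wide), and on chromosome 8, 240431 to 241446 (176, rank 5). The other 3 were shared. That on chromosome 1, 148598094 to 148599291 (165, rank 6), overlapped peaks of 4 guides, with rank 7 of 8346 with sgRNA5 and 62 of 33611 with sgRNA6. That on chromosome 17, 8088996 to 8090527 (154, rank 7), overlapped peaks of 3, at ranks 709 in sgRNA1 replicate 2, 4313 with sgRNA5 and 11546 with sgRNA6. That on chromosome 1, 144931175 to 144932995 (150, rank 8), overlapped peaks of all 5, with rank 2 in sgRNA2 replicate 2, 16 in sgRNA1 replicate 2 and 27 with sgRNA5.

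Replicate 2 had 70 peaks without overlap to another guide, 11 of them in both replicates and 59 not. The 59 had a median score of 56.1 and a median width of 515 bp, against 61.6 and 709 bp for the 306 shared single peaks. By score, the 5 highest sgRNA3 peaks without another guide were the pair of chromosome 9 peaks (1169 and 517), the peaks on chromosomes 12 (218) and 8 (176) above, and the chromosome 8 peak at 143407096 (106). Some unshared peaks lay near peaks of other guides. Of the 59, 7 were within 1 kb and 26 within 10 kb of one. Of the 17 unshared peaks of replicate 1 alone, 1 and 6 were. Of the 11 in both replicates, 0 and 2 were when measured from the replicate 2 peak, and 1 and 2 from the replicate 1 peak. The share of other positions that lie as near to a peak of another guide was not measured, so these counts cannot be called high or low.

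Sharing in replicate 2 was lowest among the narrowest peaks. The list was cut into 4 groups of 95 or 96 peaks, first by score and then by width. By score, 86.3% (77.7 to 92.5) of peaks were shared in the highest group, then 88.5 and 76.8%, and 72 of 96 (65.1 to 83.3%) in the lowest. By width, 88.4, 88.5 and 87.4% were shared in the 3 wider groups and 62.5% (52.0 to 72.2) in the narrowest. The interval of the narrowest group overlapped that of the lowest group by score. A narrower peak also has less chance to overlap, and the part of that here was not tested. Peaks in both replicates were placed otherwise: the highest group by score held 10 of the 17, and the narrowest group by width held 7. The 2 lower groups by score held 1 each. The widest replicate 2 peak, on chromosome 14, 19640886 to 19643524 (2639 bp), scored 69.9 (rank 109) and was shared with sgRNA4, sgRNA5 and sgRNA6.

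**Figure D3:**
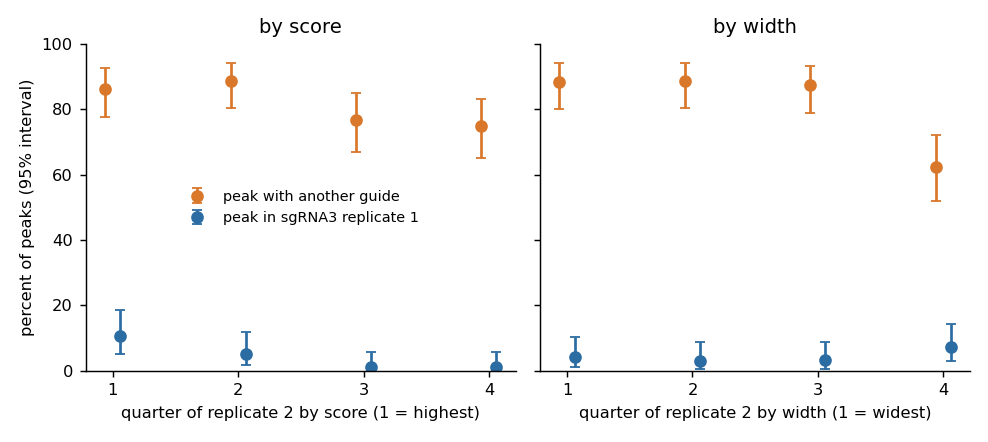
Percent of sgRNA3 replicate 2 peaks that overlap a peak of another guide (orange) or of sgRNA3 replicate 1 (blue), in 4 groups of the list ordered by score (left) and by width (right); bars are exact 95% intervals. The narrowest group has the lowest shared percent (62.5), and the highest group by score has the most peaks found in replicate 1 (10.5%).

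Replicate 2 peaks found with more guides scored higher, and they were wider up to 4 guides. The median width was 526.5 bp with no other guide (n = 70), 644.5 bp with 1 (n = 46), 646 bp with 2 (n = 73), 730.5 bp with 3 (n = 96), 777 bp with 4 (n = 75) and 767 bp with 5 (n = 22). The median scores in the same order were 56.8, 58.6, 60.8, 61.2, 63.2 and 67.1. The spread within each class was wide, as peaks without another guide ran from 234 to 2340 bp and those with 5 from 476 to 1859 bp. A wider peak also has more chance to overlap, and the part of that in these values was not tested.

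**Figure D4:**
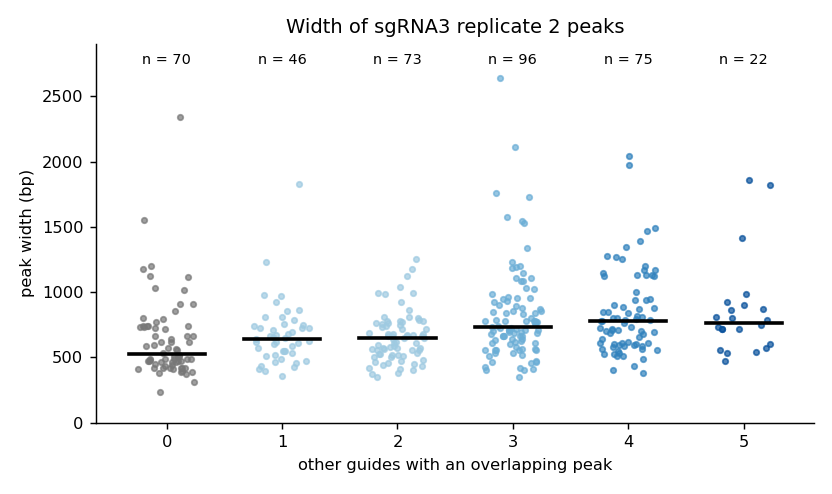
Width in bp of the 382 sgRNA3 replicate 2 peaks (points, spread sideways at random) by the number of other guides with an overlapping peak; black lines are medians. Medians run from 526.5 bp with 0 guides to 777 bp with 4, and the classes overlap widely.

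By guide, replicate 2 overlapped the long lists most. It shared 271 of 382 peaks with sgRNA6 (70.9%), 246 with sgRNA5 (64.4%), 221 with sgRNA4 (57.9%), 97 with sgRNA1 (25.4%) and 55 with sgRNA2 (14.4%). The most frequent sets of guides were sgRNA4, sgRNA5 and sgRNA6 together (73 peaks), these 3 with sgRNA1 (51 peaks), and sgRNA5 with sgRNA6 (37 peaks). All 5 other guides had a peak at 22. In replicate 2, 1 peak was shared with sgRNA1 alone and 0 with sgRNA2 alone, so almost every region shared with these guides was also in one of the long lists. The 22 included, after the chromosome 15 region, those on chromosome 1, 144931175 to 144932995, chromosome 3, 135914975 to 135915692 (146, rank 9), chromosome 9, 66493480 to 66494893 (130, rank 11), and chromosome 1, 85741861 to 85742725 (121, rank 15). The chromosome 9 one had rank 7 in replicate 2 of both sgRNA1 and sgRNA2 and rank 12 with sgRNA5, so it was high with several guides.

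Replicate 1 gave another order, with 8 of 41 peaks found with sgRNA4 (19.5%), 6 with sgRNA6 (14.6%), 5 with sgRNA5 (12.2%), 4 with sgRNA1 (9.76%) and 1 with sgRNA2 (2.44%). These counts are small, and their intervals overlap (8.82 to 34.9% for sgRNA4, 5.57 to 29.2% for sgRNA6).

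Peaks of the long lists that met replicate 2 of sgRNA3 stood higher by score and were wider than their own lists as a whole. With sgRNA5, 247 such peaks included 168 (68.0%) in the highest 25% of that list by score, with sgRNA6 166 of 280 (59.3%), and with sgRNA4 113 of 228 (49.6%). Their median widths were 856, 947 and 943.5 bp, compared with 628, 669 and 751 bp over the whole lists. They made up 2.96% of the sgRNA5, 0.833% of the sgRNA6 and 1.67% of the sgRNA4 peaks. A wider peak has more chance to meet another, and the part of that in these values was not tested.

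The share of peaks in the long lists was then compared between libraries, with each library as 1 value. At least 1 of sgRNA4, sgRNA5 and sgRNA6 had a peak at 26.8% of peaks in sgRNA3 replicate 1 and 81.4% in replicate 2. The values were 22.9 and 87.5% for sgRNA1 and 74.1 and 93.9% for sgRNA2. Among the replicate 1 libraries sgRNA3 lay between the other guides, and among the replicate 2 libraries it was the lowest of the 3. The mean was 54.1% ± 38.6 (SD, n = 2) with sgRNA3 and 69.6% ± 32.2 (SD, n = 4) with the others. The difference of -15.5 percentage points was smaller than either SD, but both SDs include the step from replicate 1 to replicate 2 seen with each guide. The two-sided exact permutation test gave p = 0.733 without regard to replicate number, and p = 0.556 with replicate number as a block. The direction of the difference turned without sgRNA3 replicate 1 (11.8 points). There sgRNA3 replicate 2 alone was set against both replicates of the other guides.

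Median peak width was compared in the same way. It was 528 and 681.5 bp with sgRNA3, 463 and 719.5 bp with sgRNA1, and 612 and 820.5 bp with sgRNA2, so replicate 2 was wider with each of these guides. Among the replicate 1 libraries sgRNA3 lay between the others, and among the replicate 2 libraries it had the lowest median. The mean of the medians was 605 ± 109 bp (SD, n = 2) with sgRNA3 and 654 ± 153 bp (SD, n = 4) with the others, a difference of -49.0 bp (p = 0.733, two-sided exact permutation test). With 15 arrangements no p under 0.0667 is possible by exact permutation, so neither comparison could pass 0.05, and the p adjusted over both tests (Benjamini-Hochberg, exact permutation) is 0.733 for each. The direction of the width difference turned when sgRNA2 replicate 2 (6.58 bp) or sgRNA3 replicate 1 (27.8 bp) was left out. In both cases the 2 sides no longer held equal shares of replicate 1 and replicate 2.

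The share of both-replicate regions that overlapped another guide was closer to that of sgRNA1 than to that of sgRNA2. It was 35.3% with sgRNA3, 31.4% with sgRNA1 and 93.8% with sgRNA2. For replicate 2 peaks absent from replicate 1, the shares were 83.8, 89.2 and 94.0%. For replicate 1 peaks absent from replicate 2, they were 29.2, 21.3 and 66.7%. With sgRNA3 and sgRNA1 the share in both replicates was thus low beside replicate 2 alone, but not beside replicate 1 alone. Over all of sgRNA3 replicate 1, 13 of 41 peaks (31.7%) overlapped another guide. Differences between guides in these shares were not tested.

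By position, the 17 regions in both replicates lay on 12 chromosomes, with 3 on chromosome 1 and 2 each on chromosomes 4, 5 and 14. None lay on chromosomes 17, 19 or 22, which are rich in genes for their length and were chosen after the positions had been seen. Chromosomes 3, 6, 12, 13, 18, 20, 21 and X held none either, and with 17 regions in all these absences were not tested. Chromosomes 17, 19 and 22 held 59 of 382 replicate 2 peaks (15.4%, 12.0 to 19.5), of which 53 were shared with another guide, and 3 of 41 replicate 1 peaks (7.32%, 1.54 to 19.9). The share was 20.4% with sgRNA4, 17.2% with sgRNA5 and 18.5% with sgRNA6, and 14.8 and 14.2% in replicate 2 of sgRNA1 and sgRNA2. In replicate 1 of sgRNA1 and sgRNA2 it was 11.5 and 3.45%, so sgRNA3 lay within the range of the other lists in both replicates.

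**Figure D5:**
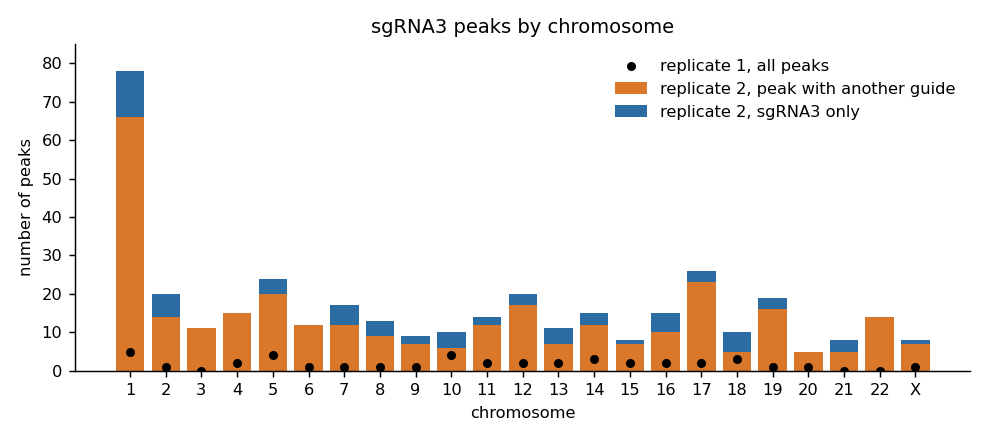
Number of sgRNA3 peaks on each chromosome: stacked bars are replicate 2, orange with and blue without a peak of another guide, and black points are all replicate 1 peaks. Chromosome 1 holds 78 replicate 2 peaks, 66 of them shared, and 5 replicate 1 peaks.

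Over all of replicate 2, 312 of 382 peaks (81.7%) were shared, and the share by chromosome, which was not tested, ran from 5 of 10 to all peaks. On chromosomes 3, 4, 6, 20 and 22, all 11, 15, 12, 5 and 14 peaks were shared. On chromosome 18, 5 of 10 were shared, and on chromosome 10, 6 of 10. Chromosome 1 had 78 peaks, of which 66 were shared (84.6%). A stretch of 15 Mb on that chromosome, from 140 to 155 Mb, held the most replicate 2 peaks of any 3 adjacent 5 Mb windows, a measure chosen after the positions had been seen. It held 18 of 382 peaks (4.71%, 2.82 to 7.35), 16 of them shared, and 3 of the 10 highest. Its peaks were wide, with a median of 949.5 bp and 8 of 18 at 1000 bp or more. Replicate 1 had 1 of 41 peaks there. In the other 7 lists the stretch held 0.809% (sgRNA6) to 3.45% (sgRNA2 replicate 1) of peaks. Because the stretch was picked for its count in sgRNA3 replicate 2, its share there is biased upward. The interval does not allow for that choice, and the lists for which it was not picked are no even comparison.

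Replicate 2 peaks fell into 328 windows of 1 Mb, of which 43 held 2 or more, and replicate 1 peaks fell into 38, of which 3 did. The counts that ungrouped lists of these lengths would give were not measured, so grouping was not tested. The windows with the most replicate 2 peaks held 4 each, on chromosome 16 from 28 to 29 Mb, chromosome 17 from 19 to 20 Mb and chromosome 18 from 19 to 20 Mb. That on chromosome 16 held the region in both replicates at 28306353 and 3 further replicate 2 peaks, at 28289035 (50.8), 28502968 (59.9) and 28947598 (52.1). Those on chromosomes 17 and 18 held no replicate 1 peak. With both lists counted together, windows on chromosome 1 from 109 to 110 Mb and chromosome 4 from 7 to 8 Mb also reached 4 sgRNA3 peaks. Each held 3 replicate 2 peaks and 1 replicate 1 peak, which overlapped 1 of the 3.

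At 2 regions found in both replicates, replicate 2 had a further peak within 1 kb. On chromosome 4, a peak at 7364345 to 7364972 (69.4) ended 0.006 kb before that at 7364979, and it lay 0.039 kb from the replicate 1 peak without touching it. On chromosome 1, a peak at 201227153 to 201227871 (90.3, rank 41) lay 0.451 kb beyond that at 201226040 (53.9, rank 303), and it was the higher of that pair. At this region the replicate 1 peak overlapped the lower of 2 neighbouring replicate 2 peaks.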

How the data were processed

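HA ChIP-seq peak lists of 9 libraries with 6 guides were used. Bowtie, Bowtie2 and MACS, without versions, and the build hg19 come from the submitters' processing notes. Their settings and any control library are not given. Each deposited list holds a peak's chromosome, start, end, name and score, and the score is the authors' value within 1 library. The lists give no reads, so depth is unknown. Starts were taken as counted from 0 and raised by 1. Per the labels, groups and replicate numbers come from sample titles; same-numbered lists are not said to share a batch, but replicate 2 was 9.32 to 13.3 times longer for all 3 replicated guides.

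Peaks were compared by overlap of at least 1 bp, with Python 3.11.15, numpy 2.4.6 and scipy 1.17.1. Shares carry exact binomial 95% intervals. The only tests were exact permutations over libraries. Overlap code was tested on simulated data. Members, lists and measures were chosen with earlier results of these data known. Named regions are all 17 in both replicates, the 5 highest of each single class, of unshared peaks and of peaks with most guides, the 5 windows of 1 Mb with the most peaks of both lists together and the widest peaks. Sequence and gene content of peaks were not analysed here.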

Additional observations from a re-analysis of the deposited data

How the results depend on the processing

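Of 66 alternative values for 11 results, 59 kept their direction and stayed within their limit, which was the 95% interval for shares, 1.5 times for medians and the direction for the tests. The 12 that left out sgRNA1, sgRNA2, sgRNA4 or sgRNA5 from the other guides were chosen after seeing the data. For replicate 2 peaks absent from replicate 1, the shared percent was 76.8 when 50% of both peaks had to overlap and 77.3 without sgRNA6. The median rank of both-replicate peaks in replicate 2, as a percent of the list, was 18.7 with the 50% overlap and 59.7 when peaks were ranked by width. The overlap of 50% also left 12 in place of 17 regions in both replicates, 2 of them shared (16.7%). Leaving out 1 library at a time gave differences of -42.8 to 11.8 percentage points in the share of peaks in the long lists and -126 to 27.8 bp in median width. Both turned positive without sgRNA3 replicate 1 (11.8 and 27.8), and the width difference also without sgRNA2 replicate 2 (6.58). Leaving out any 1 library gave the 2 sides unequal shares of replicate 1 and replicate 2. Replicate number was therefore mixed with guide at both ends of these ranges, including -42.8 points and -126 bp without sgRNA3 replicate 2. Among the replicate 2 libraries alone sgRNA3 was the lowest on both measures, and among the replicate 1 libraries it lay between the others. With the replicate number as a block (replicate block), the differences were the same, -15.5 points and -49.0 bp, with p = 0.556 for each by exact permutation. No test here could reach 0.05, so kept calls say nothing of stability. Unknown depth limits every count of peaks.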
